A study of Mus musculus with 106 samples.

Results

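The genes described here are 10 transcription factors of striatal projection neurons, named by symbol: Foxp1, Bcl11b, Meis2, Ikzf1, Isl1, Ebf1, Rarb, Rxrg, Sp9 and Six3. Each of the 10 was found in the count table, among 55401 mouse genes, of which 21897 are protein-coding. RNA was sequenced in 106 libraries from the brains of 45 mice, which were either a knock-in model of Huntington's disease (HD) or controls. Of these, 67 libraries hold RNA from immunoprecipitation (IP) of ribosomes that carry an HA tag, which Cre switches on in chosen neurons, and 39 hold total RNA of the same tissue. The HD mice were heterozygous for an Htt allele with about 200 CAG repeats (Hdh Q7/Q200), their controls carried the short allele on both chromosomes (Hdh Q7/Q7), and mice of both genotypes were about 9 months old and on a 129S4 background. In the Gad2, vGluT2 and PV lines, controls were littermates, and mice of both genotypes were heterozygous for the Rpl22-HA RiboTag allele and for Cre. The tissue was cerebrum without the olfactory bulb, or cerebellum, of 1 hemisphere.

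The Cre allele sets which cells each IP draws on. Gad2-IRES-Cre acts in GABAergic neurons, vGluT2-IRES-Cre in neurons that express or once expressed the vesicular glutamate transporter Slc17a6, and PV-IRES-Cre in parvalbumin neurons, for which duplicate IPs were pooled. The cross behind the SST libraries is not described in the study's methods. Control SST libraries include mice labelled Z56, Z57, Z58 and Z59, a label series without HD mice, while HD SST mice carry BR labels. Label series and genotype are therefore partly confounded in the SST HD effect and, through this line, in that of cerebral total RNA. Because Cre acts for good, a tag can mark neurons that expressed the Cre promoter only in development. The IP groups hold 6 control and 6 HD libraries for cerebral Gad2, 6 and 5 for PV, 5 and 4 for SST, 6 and 6 for cerebral vGluT2, 6 and 6 for cerebellar Gad2, and 5 and 6 for cerebellar vGluT2. Total RNA comes from 13 control and 12 HD cerebra and from 7 control and 7 HD cerebella, spread over the Cre lines. Among the HD IP libraries, 3 were sequenced again, 1 each for PV, cerebral vGluT2 and cerebellar Gad2, and are named re-sequenced here. By the study's methods, these 3 had failed their first sequencing and were then read at a greater length than the other libraries.

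Depth ranged from 21905221 to 107753586 counts on mouse genes per library, with a median of 35866726. The median by IP group lay between 30536348 (control SST) and 40790140 (HD cerebral vGluT2), and the 39 total RNA libraries had a median of 35858940. Levels are CPM, each library scaled to the same number of mouse-gene counts with TMM factors. A value of 0 allows up to 3 counts over a group, for example 0.0153 CPM over the 6 control cerebellar Gad2 libraries. Such floors cover counting error only.

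Striatal projection neurons are the GABAergic output cells of the striatum and fall into direct-pathway cells, which carry the dopamine receptor Drd1, and indirect-pathway cells, which carry Drd2. They arise from the lateral ganglionic eminence, where homeodomain, zinc finger, forkhead and retinoid-receptor factors act in sequence to set their identity, and several of these factors stay on in the adult. These neurons are the cells most affected in HD, and lower expression of their identity genes is a known feature of the disease and its mouse models.

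The labelled cell types were set against defining markers, given as control medians in CPM. The GABAergic genes Gad1, Gad2 and Slc32a1 read 1577, 446 and 789 in the cerebral Gad2 IP against 45.5, 19.4 and 11.1 in the cerebral vGluT2 IP. The cerebral Gad2 IP is also the library type richest in striatal projection neuron RNA: the 10 markers of these cells summed to 5442 to 7166 (median 6348) there, with Ppp1r1b the most abundant, against medians of 436 in PV, 727 in SST and 448 in cerebral vGluT2. Pvalb was higher in the PV IP (616) than in the cerebral Gad2 IP (409), and Sst was higher in the SST IP (1446) than in the cerebral Gad2 IP (767). Slc17a6, whose promoter drives vGluT2-IRES-Cre, was near 121 in the cerebral vGluT2 IP but also near 118 in PV and 115 in SST, while Slc17a7 of cortical excitatory neurons reached 2075 in the cerebral vGluT2 IP, 794 in PV and 824 in SST. So the PV and SST IPs hold their own marker together with markers of glutamatergic neurons. Control cerebral total RNA read 20.1 to 116 for Slc17a6 and 885 to 2362 for Slc17a7. The PV and SST medians of Slc17a7 thus lay below its range in total RNA, and how much of it came from tagged cells was not tested. In the cerebellum, Pcp2 of Purkinje cells stood at 1331 in the Gad2 IP and Gabra6 of granule neurons at 1293 in the vGluT2 IP. Chat, a marker of cholinergic neurons, was 3.85 in the cerebral Gad2 IP and 0 in the cerebellar Gad2 IP.

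Positions are in GRCm38.p6, and each member is annotated as protein-coding. Foxp1 (ENSMUSG00000030067.17) lies on chromosome 6 from 98925338 to 99522721. Bcl11b (ENSMUSG00000048251.15) lies on chromosome 12 from 107910403 to 108003602. The homeodomain gene Meis2 (ENSMUSG00000027210.20) is on chromosome 2 from 115863064 to 116065839, and Sp9 (ENSMUSG00000068859.5) is on the same chromosome from 73271925 to 73284706. Ikzf1 (ENSMUSG00000018654.17) spans 11685003 to 11772926 of chromosome 11, where Ebf1 (ENSMUSG00000057098.14) spans 44617317 to 45008091. Isl1 (ENSMUSG00000042258.13) is on chromosome 13 from 116298281 to 116309689. Of the retinoid receptors, Rarb (ENSMUSG00000017491.9) is on chromosome 14 from 16430839 to 16819156, and Rxrg (ENSMUSG00000015843.10) is on chromosome 1 from 167598384 to 167639623. Six3 (ENSMUSG00000038805.10) is on chromosome 17 from 85613608 to 85629302. The exons of Rarb share 1793 bases with Top2b on the other strand, those of Sp9 share 270 with Cir1, and those of Six3 share 106 with Six3os1. The libraries were stranded, but whether the counting used the strand is not stated, so how many of the counts of these 3 genes come from the neighbour is not known.

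Some libraries stood apart from their group in these genes, mostly in the cerebellum. Control cerebellar vGluT2 IP replicate 5 read 39.2 CPM for Meis2, 8.26 for Bcl11b, 1.46 for Rxrg and 1.56 for Six3, each above the other 4 control libraries. The thalamic marker Tcf7l2 was at 105 in that library and between 0.33 and 0.97 in the others. HD cerebellar vGluT2 IP replicate 5 was next, with Meis2 at 20.5 and Tcf7l2 at 27.9. Replicate 4 of the control cerebellar total RNA of the vGluT2 line had Meis2 at 24.1, Six3 at 8.02 and Tcf7l2 at 60.3. HD cerebellar Gad2 IP replicates 2 and 4 had Six3 at 14.9 and 10.3, where the other 4 HD libraries stayed under 1. The re-sequenced HD cerebral vGluT2 library had Rarb at 0.202, against 6.42 to 7.92 in the other 5, and Ikzf1, Isl1, Sp9 and Six3 at 0. Tcf7l2 was picked for this check after its values were seen. Some results below are also given without them.

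Of the 10 factors, 9 were highest in the cerebral Gad2 IP among the 6 control IP types, by their medians. For 8 of these its 6 libraries did not overlap with those of any other type, and for Ikzf1 they overlapped with 1 SST library at 2.61 CPM. Ebf1 was the exception, with its highest level in the cerebellar Gad2 IP. Below the cerebral Gad2 IP, the 9 differed in the type with the next median. Foxp1, Bcl11b and Meis2 followed in the cerebral vGluT2 IP, which overlapped with SST for each, while Isl1, Sp9 and Six3 followed in PV and were close to 0 in glutamatergic neurons. Ikzf1 also followed in PV, Rarb in the cerebellar Gad2 IP and Rxrg in SST. The members were chosen as striatal genes, so these levels describe them and are no test of the choice. The share of all genes with such a pattern is not given here, so these counts are no result about the set.

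**Figure D1:**
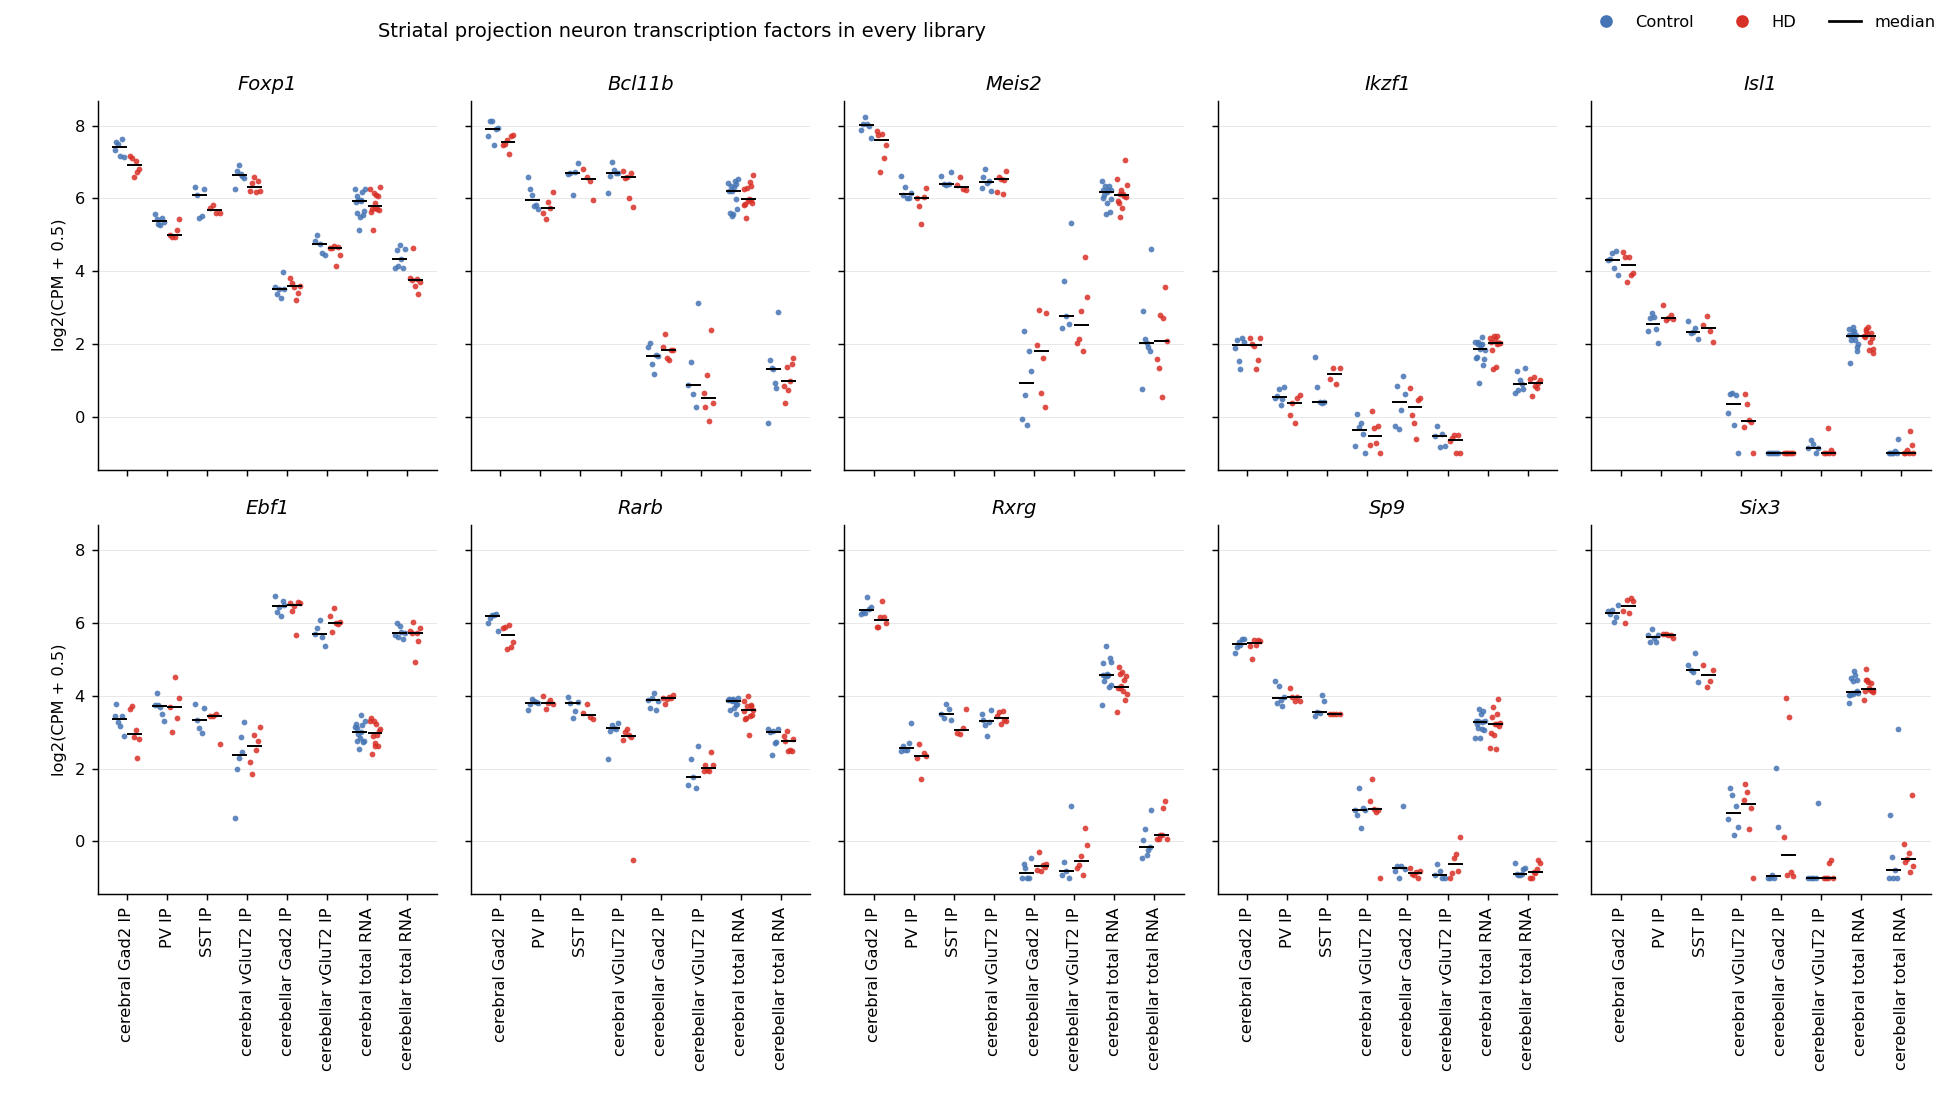
Each panel shows 1 factor, with log2 of CPM plus 0.5 on the vertical axis and the 6 IP types and the total RNA of cerebrum and cerebellum along the horizontal axis. Each point is a library (blue control, red HD), and black bars are medians. Among the 6 IP types, control medians peak in the cerebral Gad2 IP in all panels but that of Ebf1, and run there from 3.39 CPM (Ikzf1) to 260 (Meis2).

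Six3, a homeodomain factor, and Sp9, a zinc finger factor, are both needed for indirect-pathway neurons. Six3 ran from 65.3 to 90.2 CPM (median 77.2) in control cerebral Gad2 libraries, from 43.9 to 56.6 (49.0) in PV and from 20.4 to 35.9 (25.4) in SST. In the cerebral vGluT2 IP it ran from 0.622 to 2.24. These 4 groups did not overlap, and the 2 cerebellar IPs had Six3 medians of 0.0122 (Gad2) and 0 (vGluT2). Sp9 had the same order at lower levels, with 35.5 to 47.0 (42.6) in cerebral Gad2, 12.7 to 20.6 (14.7) in PV, 10.3 to 15.6 (11.3) in SST and 0.794 to 2.25 (1.31) in cerebral vGluT2. PV and SST overlapped for Sp9, and both cerebellar medians were at or under 0.103.

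Isl1, a LIM homeodomain factor of direct-pathway and of cholinergic neurons, ran from 14.4 to 22.8 CPM (median 19.5) in the control cerebral Gad2 IP. It was 3.56 to 6.70 (5.43) in PV and 3.93 to 5.70 (4.56) in SST, which overlapped. In the cerebral vGluT2 IP the values were 0 to 1.07. All 12 cerebellar Gad2 libraries had 0 counts of Isl1, so its mean in control cerebral Gad2 libraries was at least 1248-fold higher than in cerebellar ones. In HD libraries the same comparison gave at least 1630-fold. Cholinergic neurons also express Isl1, and their 3 markers, led by Slc5a7, summed to 12.3 to 21.03 in the control cerebral Gad2 IP and 12.0 to 26.3 in PV. Their part in the Isl1 level was not tested.

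Meis2 is a homeodomain factor of the embryonic ganglionic eminence, and Bcl11b (also called Ctip2) is a zinc finger factor that the differentiation of striatal projection neurons needs and that also marks deep-layer cortical output neurons. Meis2 had the highest CPM of the 10 in control cerebral Gad2 libraries, 202 to 299 (median 260). It was 73.6 to 112 (87.5) in cerebral vGluT2, 82.8 to 106 (84.0) in SST and 63.7 to 98.4 (69.4) in PV, and these 3 groups overlapped. Bcl11b was 178 to 281 (241) in cerebral Gad2, 70.2 to 128 (104) in cerebral vGluT2, 67.6 to 125 (103) in SST and 52.0 to 95.1 (61.9) in PV. For Bcl11b, too, the 3 lower cerebral types overlapped. In the cerebellum Meis2 had medians of 6.32 (vGluT2) and 1.43 (Gad2), and Bcl11b had 1.31 and 2.68.

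Foxp1, a forkhead repressor of striatal and of some cortical projection neurons, ran from 141 to 197 CPM (median 170) in the control cerebral Gad2 IP. It was 76.4 to 122 (100) in cerebral vGluT2, 43.6 to 78.7 (67.2) in SST and 37.8 to 47.1 (41.4) in PV. Neighbours in this order overlapped from cerebral vGluT2 to PV. In the cerebellum, unlike most of the others, Foxp1 stayed well above 0 in both IPs, at 21.1 to 31.2 (26.5) in vGluT2 and 9.03 to 15.3 (10.98) in Gad2, and these 2 groups did not overlap.

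The retinoid receptors Rarb and Rxrg, which bind DNA as a pair, were both concentrated in the cerebral Gad2 IP. Rarb ran from 54.5 to 75.1 CPM (median 72.1) there, and medians were 14.3 in cerebellar Gad2, 13.6 in PV and 13.3 in SST, 3 groups that overlapped. It was lower in glutamatergic neurons, with 4.30 to 9.06 (8.08) in cerebral and 2.24 to 5.68 (2.91) in cerebellar vGluT2. Rxrg ran from 75.9 to 105 (81.0) in cerebral Gad2, and its next median was 10.8 in SST. Both cerebellar medians of Rxrg were under 0.07.

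Ikzf1 (Ikaros), a zinc finger factor of lymphocytes that also acts in the making of enkephalin neurons, had the lowest level in the cerebral Gad2 IP, 1.98 to 4.02 CPM (median 3.39). Its medians were 0.957 in PV, 0.844 in cerebellar Gad2 and 0.831 in SST, which overlapped, and 0.272 and 0.191 in the 2 vGluT2 IPs. Microglia also express Ikzf1, and their 9 markers summed to medians of 149, 124, 107 and 145 in the first 4 of these IPs and 46.7 and 32.2 in the vGluT2 IPs. None of the 9 was at 0 throughout a group, and their part in the Ikzf1 level was not tested. Ebf1, a helix-loop-helix factor of B cells and of direct-pathway neurons in development, was 73.3 to 106 (88.2) in cerebellar Gad2 and 40.6 to 66.8 (51.2) in cerebellar vGluT2. These groups did not overlap with each other or with the cerebral IPs, where medians were 12.6 in PV, 9.84 in cerebral Gad2, 9.67 in SST and 4.68 in vGluT2. Vascular cells also express Ebf1, and endothelial markers summed to medians of 16.4 in cerebellar Gad2, 9.16 in cerebellar vGluT2 and 20.6 in PV. Their part in the Ebf1 level was not tested.

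Levels of different genes were compared as CPM per kilobase of exon. In the control cerebral Gad2 IP the median order was Rxrg (35.3), Bcl11b (29.7), Meis2 (21.6), Six3 (14.2), Rarb (13.7), Foxp1 (12.4), Sp9 (8.45), Isl1 (4.92), Ebf1 (1.01) and Ikzf1 (0.587). The first 3 overlapped with their neighbours, as did Six3, Rarb and Foxp1, and the others did not. Six3 led in PV with 8.99 per kilobase, Bcl11b in SST and in cerebral vGluT2 with 12.8 in each, all 3 overlapping with the next factor, and Ebf1 in cerebellar Gad2 (9.04) and vGluT2 (5.25). In cerebral total RNA of controls the per-kilobase order again began with Rxrg (10.1), Bcl11b (9.05) and Meis2 (6.01), which overlapped.

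Tests between IP types used all 67 IP libraries in 1 edgeR fit with genotypes weighted equally, and a gene passed at an adjusted p of 0.05 or less over all genes tested. Against PV, 9 of the 10 factors passed (DESeq2 9), 8 higher in cerebral Gad2 and Ebf1 lower (log2 difference −0.61, SE 0.18), where 67.2% of all genes passed. Rxrg differed most, by 3.79 (SE 0.16), and Six3 at 0.63 (SE 0.32) did not pass (adjusted p 0.0754). When only these 2 types were fitted, Six3 passed at 0.69. Pcp2 of Purkinje cells reached 163 CPM in PV (HD replicate 3) and 72.8 in cerebral Gad2 (control replicate 4). Its part in the Ebf1 difference was not tested. Against SST, 9 passed in edgeR and 8 in DESeq2, all higher in cerebral Gad2, with a background of 65.5%. Ebf1 did not pass there (−0.15), and Six3 passed in edgeR at 1.65 but not in DESeq2, whose adjusted p of 0.0897 was the highest over 5 alternatives (lowest 1.49e-10). Against cerebral vGluT2 all 10 passed in both tools, with a background of 45.6%, from 0.71 (SE 0.09) for Foxp1 to 5.90 (SE 0.42) for Six3.

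In the cerebellum, the Gad2 and vGluT2 IPs differed in 8 of the 10 in edgeR and 9 in DESeq2, where 69% of all genes passed. Higher in Gad2 were Ikzf1 by 2.38, Rarb by 1.96 (SE 0.19), Ebf1 by 0.51 (SE 0.16) and Six3 by 3.39, and lower were Foxp1 by −1.13 (SE 0.10), Meis2 by −2.03 (SE 0.32) and Rxrg by −1.55, with Isl1 at 0 in all Gad2 libraries. Without the 4 libraries that stood apart, a choice made after seeing the data, Bcl11b passed at 1.30 and Rxrg no longer did (−0.21), while Six3 stood at 4.71 and Meis2 at −1.38. Six3 did not pass in control libraries alone (0.73). Between the cerebellar and the cerebral Gad2 IP all 10 passed in both tools, where 67.4% of all genes passed. Ebf1 was higher in the cerebellum by 3.22 (SE 0.18), and the other 9 were lower, from −2.04 (Ikzf1, SE 0.22) and −2.06 (Rarb, SE 0.16) to −9.46 (Rxrg, SE 0.25), leaving out Isl1, for which the bound above applies. For both comparisons the filter on counts was taken over all 67 IP libraries, where the cerebral ones carry most counts of Isl1, Rxrg, Sp9 and Six3. In control libraries the cerebellar medians of these genes were at or under 0.103 CPM in both IPs. So neither number of calls is support for a difference of the set.

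Enrichment was read from the IP against total RNA of the same region, with genotype as a term. In the cerebral Gad2 IP, 8 of the 10 factors passed, all higher than in total RNA (DESeq2 8), where 68.7% of all genes passed. The log2 differences were 2.21 (SE 0.09) for Rarb, 2.21 (SE 0.10) for Sp9, 2.19 (SE 0.10) for Isl1 and 2.13 (SE 0.08) for Six3. They were 1.81 for Rxrg, 1.59 for Bcl11b, 1.58 for Meis2 and 1.26 (SE 0.12) for Foxp1. Ikzf1 stood at −0.05 and Ebf1 at 0.25 (adjusted p 0.0891), and neither passed. Ikzf1 had about the same level in control cerebral total RNA (1.40 to 4.09, median 3.14) as in the Gad2 IP.

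The other cerebral IPs gave mixed directions. In PV, 8 factors passed in both tools (background 76.7%): Six3 (1.52), Sp9 (0.89), Ebf1 (0.87), Isl1 (0.64) and Rarb (0.20, SE 0.09) were higher than in total RNA, and Rxrg (−1.96), Ikzf1 (−1.78) and Foxp1 (−0.54) were lower, while Bcl11b (−0.10) and Meis2 (0.02) did not pass. Rarb lost its call in 3 alternatives, among them controls alone (0.11), and Foxp1 lost its call with the mouse as a block (−0.39). Pcp2 of Purkinje cells reached 77.0 CPM in control PV replicate 2 and 163 in HD PV replicate 3, and at most 18.0 in cerebral total RNA. Its part in the Ebf1 value was not tested. In SST, 8 passed in both tools (background 70.2%), with Bcl11b, Six3, Sp9, Ebf1, Meis2 and Isl1 higher by 0.39 to 0.56 and Rxrg (−1.03) and Ikzf1 (−1.02) lower. Isl1 did not pass with controls alone (0.37) or with the mouse as a block (0.40), at about the same fold as before (0.39). In the cerebral vGluT2 IP, 9 passed in both tools (background 70.1%). Foxp1 (0.57) and Bcl11b (0.39) were higher, and 7 were lower, from −0.56 (Ebf1) to −3.75 (Six3, SE 0.20). With the mouse as a block, which leaves fewer libraries, 5 of the 10 passed, all lower, while Foxp1 (0.55) and Bcl11b (0.30) did not.

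In the cerebellum, Isl1 and Sp9 were below the filter and 8 factors were tested against total RNA. In the Gad2 IP, 6 passed in both tools (background 68.2%): Rarb (1.15, SE 0.10) and Ebf1 (0.71, SE 0.10) were higher, and Foxp1 (−0.59, SE 0.13), Ikzf1 (−0.87), Meis2 (−1.06) and Rxrg (−2.66) were lower. Without 3 libraries that stood apart, Meis2 did not pass (−0.78) and Bcl11b did (0.80). With the mouse as a block Bcl11b passed as well (0.87, adjusted p 0.0287, in a range of 0.00137 to 0.806 over 7 alternatives) and Meis2 kept its call (−0.78). In the cerebellar vGluT2 IP, 5 passed in edgeR and 4 in DESeq2 (background 68.9%). Foxp1 (0.43, SE 0.14) was higher, and Rarb (−0.92, SE 0.15), Rxrg (−1.24), Six3 (−2.39) and Ikzf1 (−3.36) were lower. In controls alone 2 of these calls held, and Foxp1 (0.19), Rxrg (−0.66) and Six3 (−2.10) did not pass. With the mouse as a block Rxrg (−0.82) and Six3 (−0.46) did not pass and Meis2 did (1.37, adjusted p 0.00809, in a range up to 0.358 over 7 alternatives). Without the 3 libraries highest in Tcf7l2, a choice made after seeing the data, Rxrg stood at −2.33, Meis2 at 0.52 (adjusted p 0.182) and Six3 was below the filter.

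The study asked which genes differ between HD and control mice in each cell type. In the cerebral Gad2 IP, the IP richest in striatal projection neuron RNA, 8 of the 10 factors had a log2 HD effect below 0, but none passed. The median effect of the 10 was −0.26, against −0.01 over all genes. Foxp1, Meis2, Rarb and Bcl11b were lower than the control median in 6 of 6 HD libraries and Rxrg in 5 of 6. The shares of all genes with an effect below 0, or with such HD libraries, are not given here, so these counts only describe the factors. By edgeR 0 of 10 passed and by DESeq2 0 of 10, while 5 of 10 had an unadjusted p under 0.05 by either tool. Among all 14342 genes tested, 8 passed in edgeR (0.0558%) and 75 in DESeq2 (0.523%), and 1310 had an unadjusted p under 0.05 in edgeR. An IP measures a share of the tagged RNA, so fewer cells of a type and less RNA per cell cannot be told apart.

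Foxp1 read 141 to 197 CPM (median 170, mean 168 ± 23.8 SD, n = 6) in control libraries and 96.2 to 144 (median 121, mean 121 ± 19.0 SD, n = 6) in HD libraries. The groups overlapped by 1 HD library, replicate 1, and the 5 others lay below every control. Its log2 HD effect was −0.50 (SE 0.14), with an adjusted p of 0.332 in edgeR and 0.108 in DESeq2, and over 21 alternatives it ran from −0.55 to −0.43 with adjusted p from 0.0894 to 0.735 (0.218 with the replicate number as a block). Meis2 read 202 to 299 (median 260) in controls and 105 to 231 (median 195) in HD. HD replicates 3, 5 and 6 were below every control and the other 3 were not, and the effect was −0.51 (SE 0.19), with an adjusted p of 0.538 in edgeR. Rarb read 54.5 to 75.1 (median 72.1) in controls and 38.3 to 61.6 (median 50.7) in HD. The same 3 HD replicates were below every control for Rarb, and its effect was −0.48 (SE 0.15), with an adjusted p of 0.476 in edgeR.

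Bcl11b read 178 to 281 CPM (median 241) in controls and 150 to 215 (median 187) in HD, an effect of −0.37 (SE 0.13) with an adjusted p of 0.513 in edgeR. Of the HD libraries, replicates 1 and 4 were below every control. Rxrg read 75.9 to 105 (median 81.0) in controls and 58.6 to 96.9 (median 67.3) in HD, and 5 of 6 HD libraries were below every control. The sixth, replicate 4, was the highest of the HD group, as replicate 4 was among controls, and the effect was −0.29 (SE 0.13), with an adjusted p of 0.538 in edgeR. Six3 went the other way at 0.13 (SE 0.12), with 63.2 to 102 (median 88.8) in HD against 65.3 to 90.2 (median 77.2). Of the HD libraries, 5 of 6 were above the control median, and replicates 3, 5 and 6, the lowest in Foxp1, Meis2 and Rarb, were the highest in Six3, at 99.5, 102 and 97.6. Effects of the remaining factors were −0.22 for Ebf1, −0.14 for Isl1, −0.06 for Sp9 and 0.03 for Ikzf1, with adjusted p of 0.698 or more. When single libraries were left out, Ebf1 ran from −0.37 to −0.08, Isl1 from −0.21 to −0.04, Sp9 from −0.09 to 0.02 and Ikzf1 from −0.07 to 0.16. Pcp2 of Purkinje cells ran from 0.0828 to 72.8 CPM in controls and from 0.134 to 56.4 in HD. Its part in the Ebf1 value was not tested.

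**Figure D2:**
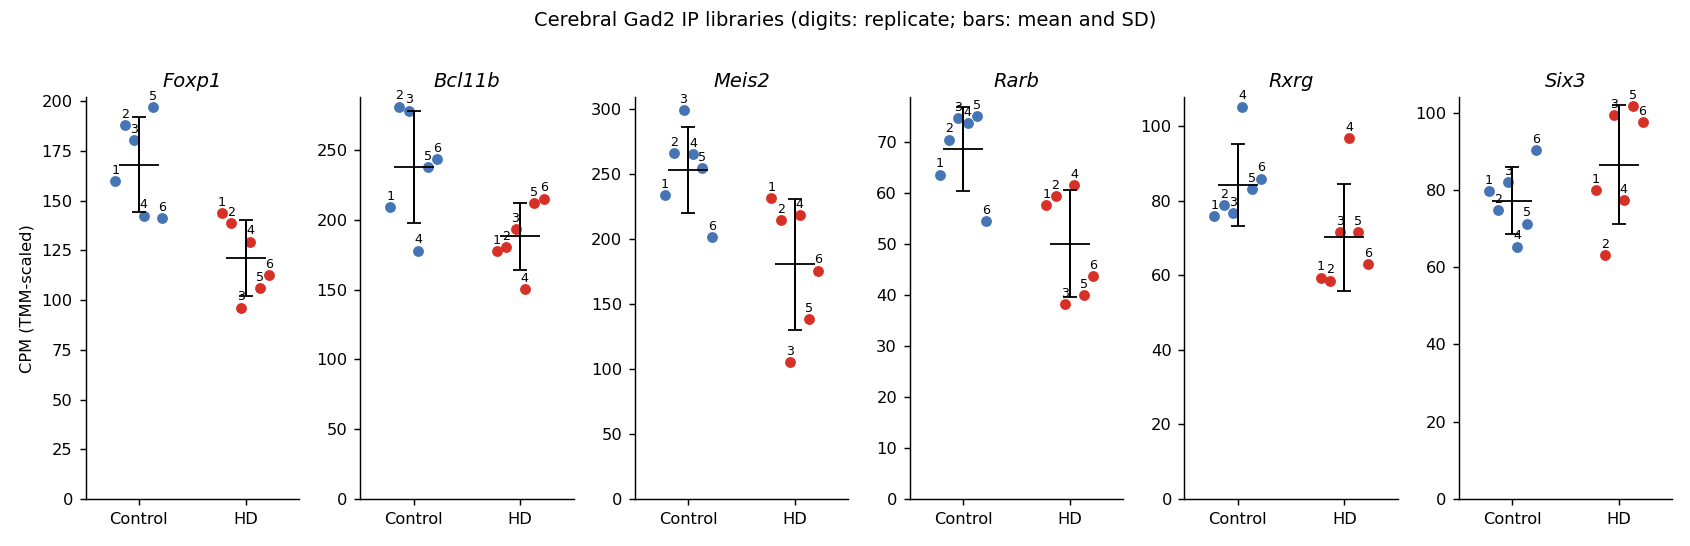
CPM of Foxp1, Bcl11b, Meis2, Rarb, Rxrg and Six3 on the vertical axis for each control (blue) and HD (red) cerebral Gad2 IP replicate, with the mean and SD of the 6 libraries of each genotype. For Foxp1, 5 HD libraries lie below the lowest control at 141 CPM, and for Six3, HD replicates 3, 5 and 6 lie at 99.5, 102 and 97.6.

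Of a list of 16 effector genes of striatal projection neurons, 2 fell in the cerebral Gad2 IP, where 0.0558% of all genes passed in edgeR. These were Penk, the enkephalin precursor, by 0.90 on the log2 scale (adjusted p 0.0449) and Arpp21, a cyclic-AMP-regulated phosphoprotein, by 0.78 (adjusted p 0.0115). Of the 16, 13 had an unadjusted p under 0.05, DESeq2 called 6, and the median effect was −0.48, against −0.01 over all genes. The 10 markers of these neurons, all of which are also on that list, summed to 5442 to 7166 CPM (median 6348) in controls and 3297 to 5293 (median 4473) in HD. Every HD library was below every control in this sum. The 9 microglial markers summed to 108.3 to 239 (median 149) in controls and 120 to 449 (median 230) in HD. None of the 9 passed in edgeR or DESeq2 and 5 had an unadjusted p under 0.05. The part of either marker list in the members' values was not tested.

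In the PV IP, HD and control libraries differed in the same direction for some of the same factors, again without a call. By edgeR 0 of 10 passed (0.0408% of all genes) and by DESeq2 0 (0.285%), and 2 had an unadjusted p under 0.05 by either tool (647 of 14713 genes in edgeR). Foxp1 read 37.8 to 47.1 CPM (median 41.4, n = 6) in controls, and 31.5, 30.3, 30.2, 34.5 and 42.9 in the 5 HD libraries. The first 4 of these lay below every control and the re-sequenced library did not. The log2 effect was −0.31 (SE 0.11), with an adjusted p of 0.962 in edgeR and a range of 0.265 to 1 over 21 alternatives. Without the re-sequenced library it was −0.41. Rxrg read 5.13 to 9.10 (median 5.40) in controls and 2.75, 4.398, 4.55, 4.89 and 5.89 in HD, 4 of 5 below every control, with an effect of −0.44 (SE 0.18) and an adjusted p of 1 in edgeR. Effects of the other 8 were −0.34 (Ikzf1), −0.31 (Bcl11b and Meis2), −0.07 (Sp9), 0.00 (Rarb), 0.03 (Six3), 0.10 (Ebf1) and 0.25 (Isl1), and all 5 HD libraries were above the control median for Isl1. With the replicate number as a block, Ikzf1 stood at −0.58, Bcl11b at −0.57, Meis2 at −0.52, Foxp1 at −0.48 and Ebf1 at −0.15. When single libraries were left out, Ebf1 ran from −0.16 to 0.26. Pcp2 of Purkinje cells ran from 0.473 to 77.0 CPM in controls and from 0.664 to 163 (replicate 3) in HD. Its part in the Ebf1 value was not tested. Striatal projection neuron markers summed to 386 to 520 in control and 277 to 369 in HD PV libraries, without overlap, and their part in these values was not tested.

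The SST IP gave no call either: 0 of 10 by edgeR (0% of all genes) and 0 by DESeq2 (0.0136%), and 0 with an unadjusted p under 0.05 by either tool (227 of 14689 genes in edgeR). Of the 10 effects, 8 were below 0, from −0.36 (Rxrg, SE 0.19) through −0.21 (Rarb, Sp9 and Six3), −0.16 (Bcl11b) and −0.13 (Meis2) to −0.09 (Ebf1), and Ikzf1 (0.47, SE 0.36) and Isl1 (0.08) were above. The median over all genes was 0.01. When single libraries were left out, Ikzf1 ran from 0.33 to 0.90, Isl1 from −0.06 to 0.21, Ebf1 from −0.19 to 0.09 and Bcl11b from −0.29 to −0.008. Foxp1 had 43.6, 45.3, 67.2, 76.8 and 78.7 CPM in the 5 controls and 48.4, 48.4, 52.6 and 56.1 in the 4 HD libraries. The controls spread on both sides of the HD group, and the effect was −0.27 (SE 0.20). Rxrg had 9.52, 9.92, 10.8, 12.0 and 13.2 in controls and 7.20, 7.44, 8.12 and 11.9 in HD, with 3 of 4 HD libraries below every control.

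In the cerebral vGluT2 IP, 0 of 10 passed by edgeR (0.00697% of all genes) and 0 by DESeq2 (0.174%), and 1, Foxp1, had an unadjusted p under 0.05 by either tool (1362 of 14354 genes in edgeR). Foxp1 read 76.4 to 122 CPM (median 100) in controls and 71.5 to 95.1 (median 79.4) in HD. All 6 HD libraries were below the control median and 3 below every control, with an effect of −0.30 (SE 0.12), an adjusted p of 0.516 in edgeR and a range of 0.115 to 0.981 over 22 alternatives. Rarb stood at −0.39 (SE 0.38), and at −0.10 without the re-sequenced library. The other 8 effects were −0.60 (Isl1), −0.33 (Ikzf1), −0.24 (Bcl11b), −0.12 (Six3), −0.01 (Meis2), 0.01 (Sp9), 0.10 (Rxrg) and 0.24 (Ebf1). Without the re-sequenced library, which is at 0 for these 4, Isl1 stood at −0.25, Ikzf1 at 0.01, Sp9 at 0.32 and Six3 at 0.22, and DESeq2 gave them no adjusted p because of their low counts.

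**Figure D3:**
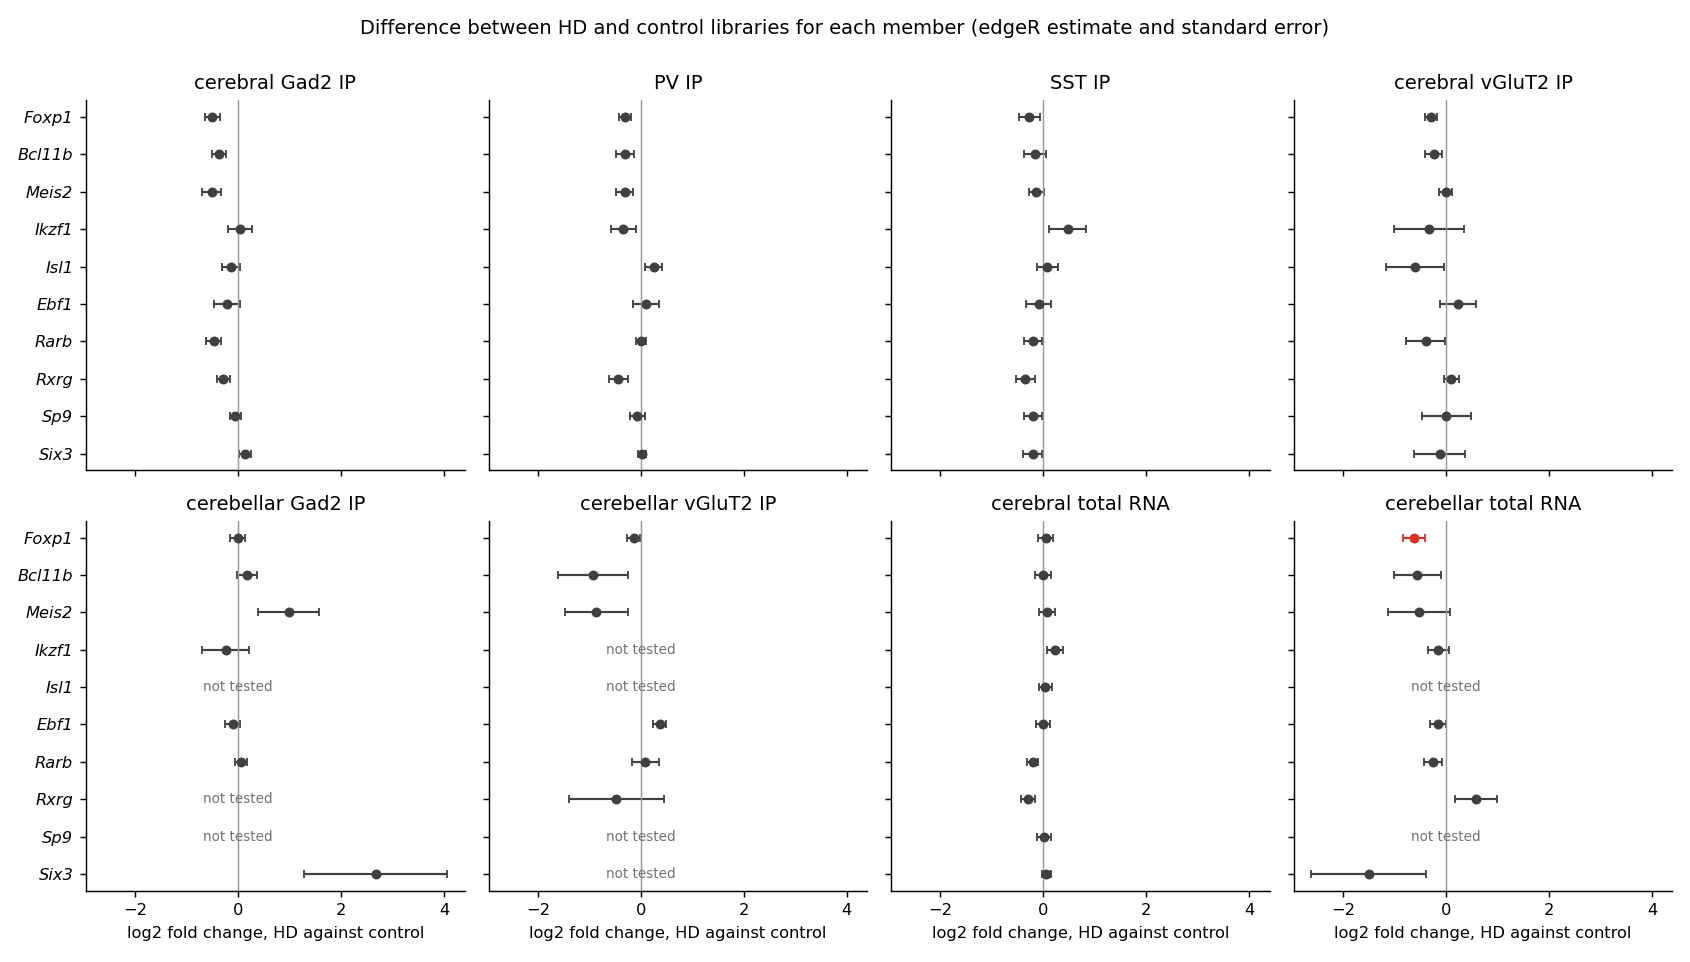
Log2 HD effect of each factor from edgeR with its SE (horizontal axis) in the 6 IPs and in total RNA of both regions, 1 panel each. Red marks the only call, Foxp1 at −0.63 in cerebellar total RNA, and factors below the filter on counts are marked as not tested.

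In the cerebellar Gad2 IP, Isl1, Rxrg and Sp9 were below the filter, and of the 7 tested 0 passed by edgeR (0.0142% of all genes) and 0 by DESeq2 (0.156%), with 0 at an unadjusted p under 0.05 by either tool (364 of 14098 genes in edgeR). Foxp1 read 9.03 to 15.3 CPM (median 10.98) in controls and 8.73 to 13.4 (median 11.5) in HD, an effect of −0.01 (SE 0.15). Effects were 0.06 for Rarb, −0.10 for Ebf1, 0.18 for Bcl11b and −0.24 for Ikzf1, each smaller than its SE. Six3 had the widest estimate, 2.67 (SE 1.40), which turned to −2.18 without the 2 HD libraries that stood apart, a choice made after seeing the data that kept the highest control (replicate 5, 3.57 CPM), and was 4.58 without that control. Meis2 stood at 0.98 (SE 0.59), in a range of 0.61 to 1.52 over 23 alternatives.

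In the cerebellar vGluT2 IP, 6 factors were tested, with Ikzf1, Isl1, Sp9 and Six3 below the filter. By edgeR 0 of 6 passed (2.25% of all genes) and by DESeq2 0 (4.93%), and 1 had an unadjusted p under 0.05 by either tool (2164 of 13487 genes in edgeR). This was Ebf1, with 40.6, 48.6, 51.2, 57.7 and 66.8 CPM in the 5 controls and 53.4 to 84.1 (median 64.1) in 6 HD libraries. All 6 HD libraries were above the control median and 2 above every control, with an effect of 0.37 (SE 0.13), an adjusted p of 0.187 in edgeR and 0.142 in DESeq2, and a range of 0.115 to 0.570 over 21 alternatives. Foxp1 (−0.14, SE 0.13) had all 6 HD libraries below the control median, and Rarb (0.09) had all 6 above it. When single libraries were left out, Foxp1 ran from −0.19 to −0.06 and Rarb from −0.03 to 0.37. Bcl11b (−0.93, SE 0.68) and Meis2 (−0.86, SE 0.60) stood at 0.17 and 0.11 without control replicate 5, and at −0.48 and −0.42 without replicate 5 of both genotypes, a choice made after seeing the data. Rxrg was at −0.48 (SE 0.92), and fell below the filter without control replicate 5. The granule neuron genes Cbln3 (−0.80) and Neurod1 (−0.87) passed in this IP, 2 of the 5 granule markers.

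Total RNA holds all cells of the tissue, and the Cre line entered its fits as a term. In the cerebrum 0 of 10 factors passed by edgeR (0.733% of all genes) and 0 by DESeq2 (1.43%), and 1, Rxrg, had an unadjusted p under 0.05 by either tool (1104 of 14880 genes in edgeR). Rxrg read 12.9 to 41.1 CPM (median 23.2, n = 13) in controls and 11.3 to 27.3 (median 18.5, n = 12) in HD. The groups overlapped widely, with 9 of 12 HD libraries below the control median, an effect of −0.30 (SE 0.13), an adjusted p of 0.577 in edgeR and a range of 0.266 to 1 over 38 alternatives. Rarb read 10.8 to 14.8 (median 14.0) in controls and 7.03 to 15.4 (median 11.7) in HD, with 10 of 12 HD libraries below the control median and an effect of −0.20 (SE 0.11). Foxp1, which had 34.6 to 76.8 (median 60.8) in controls and 34.6 to 79.4 (median 55.3) in HD, stood at 0.04 (SE 0.15). The other 7 stood at −0.02 (Bcl11b), −0.01 (Ebf1), 0.01 (Sp9), 0.04 (Isl1), 0.06 (Six3), 0.08 (Meis2) and 0.22 (Ikzf1).

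Of the 16 effector genes, 8 fell in cerebral total RNA, where 0.733% of all genes passed in edgeR. The median effect was −0.47, against 0.02 over all genes. Among the 8 were Penk by 0.80, Scn4b, a sodium channel subunit, by 0.78, Adora2a, the adenosine receptor of indirect-pathway neurons, by 0.76 and the phosphodiesterase Pde10a by 0.59. The 10 markers of striatal projection neurons summed to 906 to 2043 CPM (median 1482) in controls and 589 to 1252 (median 865) in HD. In the PV, SST and cerebral vGluT2 IPs edgeR called 0 of the 16 (unadjusted p under 0.05 for 12, 6 and 5, DESeq2 4, 0 and 2), with medians of −0.47, −0.37 and −0.22. In the cerebellum the 16 gave no call in the Gad2 IP by either tool (0 at an unadjusted p under 0.05). There was 1 lower in the vGluT2 IP (Ppp1r1b, −0.62), where 2.25% of all genes passed. In cerebellar total RNA, where 26.8% of all genes passed, 1 was higher (Adora2a, 0.76) and 2 were lower, among them Pde10a (−0.61).

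Foxp1 passed in 1 comparison between HD and control mice, that of cerebellar total RNA, where it was lower in HD. The 7 controls read 16.4, 23.4 and 17.2 CPM in the Gad2 line and 25.7, 19.8, 16.5 and 23.9 in the vGluT2 line. The 7 HD libraries read 13.7, 12.9 and 24.3 in the Gad2 line and 11.5, 13.4, 9.81 and 12.6 in the vGluT2 line. All HD libraries but replicate 3 of the Gad2 line, 6 of 7, lay below every control, and means were 20.4 ± 3.90 (SD, n = 7) and 14.0 ± 4.70 (SD, n = 7). The log2 effect was −0.63 (SE 0.21), with an adjusted p of 0.0436 in edgeR and 0.0184 in DESeq2. Of the 8 factors tested, 1 passed by edgeR and 1 by DESeq2, in a comparison where 26.8% of all genes passed by edgeR and 34.4% by DESeq2. That share is unstable: 3873 genes passed in edgeR, 118 to 7552 when single libraries were left out, 0 in the Gad2 line alone and 7664 in the vGluT2 line alone.

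The call of Foxp1 depended on most of the libraries. Over 24 alternatives the effect of Foxp1 ran from −0.99 to −0.15 and the adjusted p from 0.00152 to 1, and it passed in 11. When single libraries were left out, the call held without control Gad2-line replicate 1 or 3 or HD Gad2-line replicate 3 (−0.83 without the last), and was lost without any of the other 11: control Gad2-line replicate 2, HD Gad2-line replicates 1 and 2, and all 4 control and 4 HD vGluT2-line replicates. The effect then ran from −0.83 to −0.54 and the adjusted p from 0.00161 to 0.0965. In the vGluT2 line alone the effect was −0.99 (adjusted p 0.00152), with no overlap between 4 HD and 4 control libraries, and in the Gad2 line alone it was −0.15 (adjusted p 1). Whether the lines differ was not tested. With the replicate number as a block the effect was −0.63, as before, and the adjusted p 0.0907.

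Markers of other cells are given for the same libraries, in a comparison where 26.8% of all genes passed in edgeR. The 9 microglial markers summed to 127 to 146 CPM (median 139) in the vGluT2-line controls and 222 to 241 (median 222) in its HD libraries, without overlap, and to 141 to 170 against 145 to 174 in the Gad2 line. Of the 9, 5 were higher in HD, among them Tmem119 (0.66), C1qa (0.60), Trem2 (0.57) and Csf1r (0.51). Of the other lists, those with calls were: GABAergic 2 of 3 lower (Gad2 −1.002, Gad1 −0.35), Purkinje 2 of 5 lower (Itpr1 −0.93, Calb1 −0.56, with Pcp2 at 0.05), cerebellar granule 1 of 5 lower (Cbln3 −0.55), oligodendrocyte 2 of 5 lower (among them Mobp −1.05), astrocyte 1 of 6 lower (Aqp4 −1.02), mural 1 of 4 lower (Rgs5 −0.81) and cortical excitatory 1 of 5 higher (Slc17a7 0.57, which granule neurons also express). Of the 3 endothelial markers 0 passed by either tool (0 at an unadjusted p under 0.05 in edgeR). Several of these lists lie near or below the share over all genes, so their counts only describe them. TMM factors of the vGluT2 line were 1.03, 1.12, 1.08 and 1.08 in controls and 0.906, 0.892, 0.917 and 0.901 in HD, without overlap, while those of the Gad2 line overlapped. Their part in the Foxp1 value was not tested.

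The other factors gave no call in cerebellar total RNA, with Isl1 and Sp9 below the filter. Rxrg (0.58, SE 0.40) had all 7 HD libraries above the control median, and the highest library read 1.63 CPM, with an effect of 0.97 without control vGluT2-line replicate 4. Rarb (−0.25, SE 0.17) had 6 of 7 below it, and Ebf1 (−0.15) and Ikzf1 (−0.15) were close to 0. Rarb passed at −0.48 in the vGluT2 line alone, with an adjusted p of 0.0447 in a range up to 1 over 24 alternatives. The estimates of Bcl11b (−0.56, SE 0.45), Meis2 (−0.52, SE 0.60) and Six3 (−1.501, SE 1.12) rested on control replicate 4 of the vGluT2 line, and were −0.00496, 0.29 and 1.25 without it.

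**Figure D4:**
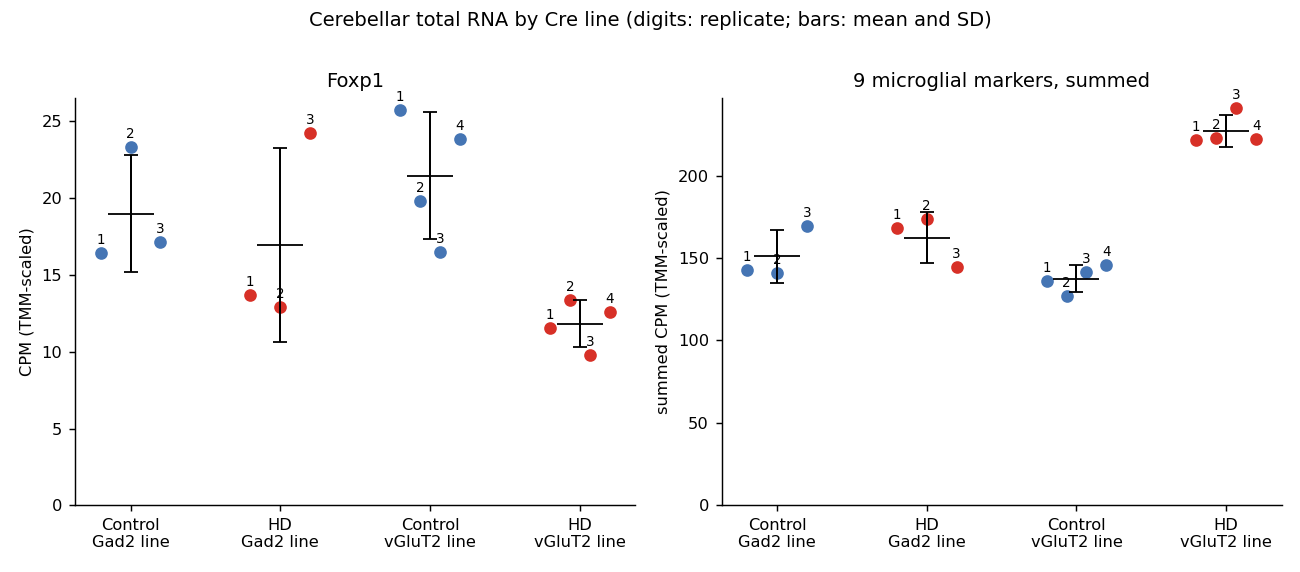
Foxp1 CPM and the summed CPM of 9 microglial markers (vertical axes) in cerebellar total RNA, by Cre line and genotype (blue control, red HD), with points for libraries and the mean and SD of each group. In the vGluT2 line the 4 HD libraries lie at 9.81 to 13.4 CPM of Foxp1, below all 4 controls, and at 222 to 241 CPM of microglial markers, above all 4.

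Differences of the HD effect between groups were tested as interactions, and edgeR called none of the 10 factors in any of the 6. Background shares were 0.00683% for PV minus cerebral Gad2, 0% for SST minus cerebral Gad2 and 0% for cerebral vGluT2 minus cerebral Gad2, and the number of factors with an unadjusted p under 0.05 in edgeR was 0 in each of these 3 (442, 417 and 443 of 14648 genes), with 0 called by DESeq2. For cerebellar minus cerebral Gad2 the background was 0.0478%, DESeq2 called 0 and 4 factors had an unadjusted p under 0.05 in edgeR (977 of all genes): Six3 (2.56), Meis2 (1.499), Foxp1 (0.50, SE 0.20) and Sp9 (−2.17). Sp9 was below the filter in the cerebellar Gad2 IP itself, and the Six3 value includes the 2 HD cerebellar Gad2 libraries that stood apart. Their lowest adjusted p was 0.610. For cerebellar vGluT2 minus cerebellar Gad2 the background was 0.416%, and 4 factors had an unadjusted p under 0.05 in edgeR (1308 of all genes). DESeq2 called 1 of these, Sp9 (4.77, adjusted p 0.00153), whose adjusted p was 0.235 in edgeR. Sp9 had 0 to 19 counts per library in these 4 groups except for 34 in control cerebellar Gad2 replicate 5. For cerebral Gad2 IP minus cerebral total RNA the background was 0.00675%, DESeq2 called 0, and 2 factors had an unadjusted p under 0.05 in edgeR (1163 of 14816 genes), Foxp1 (−0.50, SE 0.24) and Meis2 (−0.55, SE 0.26), each with an adjusted p of 0.612. So the lower values of Foxp1 in the cerebral Gad2 IP were not shown to differ from its effect in the other cerebral IPs (0.15 to 0.19 apart) or in total RNA.

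Paralogs and partner factors of the members, a list of 30, gave no edgeR call with genotype in the cerebral IPs. In the cerebral Gad2 IP 29 were tested and 0 passed by edgeR or DESeq2 (3 at an unadjusted p under 0.05), with a median of 0.03 against −0.01 over all genes. In the cerebellar vGluT2 IP, where 2.25% of all genes passed, 1 of 22 did, Ebf4 (1.07), a paralog of Ebf1, which also had the 1 call of the list among the interactions (1.06 against cerebellar Gad2). In cerebellar total RNA 5 of 22 were higher, among them Zfp503 (0.92) and Ebf4 (0.69), and 2 were lower, Foxp2 (−1.33), a paralog of Foxp1, and Ebf2 (−0.73), where 26.8% of all genes passed. Against total RNA, where 68.7% of all genes passed, 16 of 29 were higher in the cerebral Gad2 IP and 5 lower, with a median of 0.24 against 0.04.

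Genes that make, bind or break down retinoic acid, the ligand of Rarb, form a list of 12. In HD against control, edgeR called 0 of them in the 6 IPs and in cerebral total RNA (2, 1, 1, 2, 0, 0 and 1 at an unadjusted p under 0.05, and 1 called by DESeq2 in PV). In cerebellar total RNA, where 26.8% of all genes passed, Cyp26b1, which breaks retinoic acid down, was higher (0.48) and Aldh1a1, which makes it, was lower (−0.49). Against total RNA, 2 of 11 were higher in the cerebral Gad2 IP (68.7% of all genes passed), Rbp4 and Crabp1, and 7 were lower, with a median of −1.17 against 0.04. All 16 effector genes were higher there, with a median of 1.90.

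Across the 67 IP libraries, log2(CPM + 0.5) of the factors moved together in groups, given here as a description of libraries that share cell types. Isl1 and Sp9 had a Pearson r of 0.9798, Sp9 and Six3 0.948, Bcl11b and Rxrg 0.936, and Bcl11b and Meis2 0.934. Ebf1 was negatively related to each of the other 9, from −0.22 (Rarb) to −0.89 (Bcl11b). Among 13140 protein-coding genes, the most like Foxp1 were Arpp21 (0.953), Dclk3 (0.951) and Mrtfb (0.946), and the most like Bcl11b were Ptpro (0.983), D430019H16Rik (0.979) and Neto1 (0.979). For Meis2 they were Stc1 (0.954), Stk32c (0.954) and Lpl (0.953), and for Rxrg Ano2 (0.987), Prkch (0.985) and Ankrd63 (0.982). Isl1, Sp9 and Six3 shared Dlx5, at 0.984, 0.982 and 0.948, and Isl1 and Sp9 came next for each other. Dlx6 (0.979) followed for Isl1 and Dlx1 (0.979) for Sp9, and Gata3 (0.972) was first for Six3, with Sp9 (0.948) after Dlx5. Rarb was most like Itga5 (0.931), Pou3f4 (0.916) and Ptpn7 (0.874). Ikzf1 was most like Rnase4 (0.892), the microglial gene Tmem119 (0.891) and Sox1 (0.882), and Ebf1 was most like Lhx1 (0.947), Zfp521 (0.940) and Lats2 (0.940).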

How the data were processed

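The authors aligned reads to GRCm38.p6 with STAR and quantified them with Salmon (nf-core/rnaseq 3.0), and the deposited table holds expected counts per gene, not normalized. Every one of its 106 sample columns was matched to a library (0 columns were without a sample). The 92 spike-ins were left out, and counts (8.57% of which were not whole numbers) were rounded. CPM used TMM factors over 14800 genes. Tests took protein-coding genes whose counts averaged more than 10 over the compared libraries, with edgeR 4.0.16 (quasi-likelihood, `legacy = FALSE`, limma 3.58.1, R 4.3.3), and calls are at a Benjamini-Hochberg adjusted p of 0.05 or less. SE is the log2 effect over the root of F. Tables came from pandas 2.3.3 and numpy 2.4.6 under Python 3.11.15, and plots from matplotlib 3.10.9. The procedure was tested on simulated data, where DESeq2 made more false calls than the bound first set; after this was seen, the bound was kept for edgeR only.

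IP libraries of each cell type were compared between genotypes alone, total RNA with the Cre line as a term, IP with total RNA with genotype as a term, and IP types and interactions in 1 fit of 67 libraries. Same-numbered control and HD libraries come from different mice, and the number was no term in the main fits. Whether such libraries share a litter or a processing batch is not given by the labels. Over 48 such pairs r ran from −0.82 to 0.955 (median 0.141), with 25 over 0.1, among them 4 of 6 in the cerebral Gad2 IP and all 3 in the cerebral total RNA of that line, and fits with the number as a block are among the alternatives. Libraries of the same mouse were known, and the mouse was a block in some alternatives. Alternatives were DESeq2 1.42.0, the legacy fit, other scalings and filters, all gene types, blocks, Xist as a covariate, single Cre lines, genotypes or fits, and leaving out each library. Those without the libraries that stood apart were chosen after seeing the data. Any member could be named in any comparison. From the lists (paralogs and partners, retinoic acid genes, effector genes and cell type markers), genes past the threshold were named, at most the 4 with the largest fold, or else the most abundant, and for likeness the 3 genes with the highest r. Members and lists were chosen with earlier results of these data known. Values of some single genes of these lists are not reported here.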

Additional observations from a re-analysis of the deposited data

Results flagged for a closer look

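The values here lie far from the other libraries of their group by Dixon's ratio of the gap to the range at the 95% level, over 131 groups of 4 to 10 libraries for the 10 factors. Chance gives about 1 in 20 such groups, or 6.55, and 25 were found, 20 high and 5 low. Many come from the same few libraries, so they are not independent. Values are CPM, with the range of the other libraries in parentheses.

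Control cerebellar vGluT2 IP replicate 5 was high in Bcl11b at 8.26 (0.705 to 2.31), in Meis2 at 39.2 (4.90 to 12.8), in Rxrg at 1.46 (0 to 0.171) and in Six3 at 1.56 (0 in the others). HD cerebellar vGluT2 IP replicate 5 was high in Bcl11b at 4.69 (0.424 to 1.71), Meis2 at 20.5 (2.97 to 9.32) and Rarb at 5.02 (3.28 to 3.79). In vGluT2-line cerebellar total RNA, control replicate 4 was high in Bcl11b at 6.86 (1.24 to 1.97), Meis2 at 24.1 (3.01 to 3.58), Rxrg at 1.32 (0.272 to 0.396) and Six3 at 8.02 (0 to 0.0812). There, HD replicate 3 was high in Six3 at 1.93 (0.0569 to 0.299), and HD replicate 4 in Rarb at 6.49 (5.04 to 5.15).

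Control cerebellar Gad2 IP replicate 5 was high in Foxp1 at 15.3 (9.03 to 11.3) and Six3 at 3.57 (0 to 0.816), and HD replicate 4 was low in Ebf1 at 50.7 (80.3 to 95.7). In the cerebral Gad2 IP, replicate 4 was high in Rxrg in controls at 105 (75.9 to 86.0) and in HD at 96.9 (58.6 to 71.6), and HD replicate 2 was low in Sp9 at 31.6 (40.8 to 45.6). Rarb was low in cerebral vGluT2 IP control replicate 1 at 4.30 (7.69 to 9.06) and in the re-sequenced HD library at 0.202 (6.42 to 7.92). Rxrg was high in control PV replicate 6 at 9.10 (5.13 to 6.06), and Sp9 in HD PV replicate 1 at 18.2 (13.9 to 15.2). In SST, Ikzf1 was high in control replicate 1 at 2.61 (0.799 to 1.27), and Ebf1 was low in HD replicate 4 at 5.84 (10.3 to 10.9).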

How the results depend on the processing

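The number of the 10 factors that passed moved by over 1.5 times in 4 comparisons and by less in 7 others: cerebral Gad2 (8 to 9), PV (6 to 8), SST (7 to 8) and cerebellar Gad2 IP (5 to 7) against total RNA, and levels in cerebral Gad2 against PV (8 to 10) or SST (8 to 9) and in cerebellar Gad2 against vGluT2 (6 to 9). HD against control in cerebellar total RNA had 1 call (Foxp1), against 0 with the replicate block or in the Gad2 line alone, 2 in the vGluT2 line alone, and 0 to 1 when single libraries were left out. The interaction of cerebellar vGluT2 and Gad2 had 0 calls in edgeR and 1 in DESeq2. Cerebral vGluT2 IP against total RNA had 9, and 5 with the mouse as a block, and cerebellar vGluT2 IP against total RNA had 5, and 2 in controls alone. These 2 alternatives use fewer libraries, and otherwise the cause was not tested. No factor that passed turned its sign in any alternative. Of values that did not pass, the sign turned in some alternative for 33 of 70 HD effects, 5 of 12 for IP against total RNA, 2 of 4 between IP types and 9 of 60 interactions. Rarb in cerebellar total RNA was −0.25, and 0.0639 in the Gad2 line. Between cerebellar Gad2 and vGluT2 IPs, Bcl11b was 0.46, and −0.11 in controls alone, and Sp9 was 0.18, and −0.0429 without 4 libraries that stood apart. Among HD effects, 1 of 71 passed and 0 held in every alternative. Of 44 calls for IP against total RNA 33 held in every alternative, and of 46 between IP types 42 did. In the cerebellum Isl1, Sp9, Rxrg and Six3 had few counts in most libraries, and depth limits their values there.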
